A study of Rattus norvegicus with 8 samples.

Results

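The genes described here are 44 that serve protein folding and quality control in the endoplasmic reticulum (ER): the sensors of the unfolded protein response, the chaperones and folding enzymes of the ER lumen, the machinery that removes misfolded proteins, and the translocon through which new proteins enter. They were taken as a list of gene names, and a member was measured where a probe of the array carried a rat RefSeq transcript of that gene. Of the 44 listed, 41 had such a probe (51 probes in all), and 39 were detected and tested among 13460 genes. Sec62, Derl2 and Manf had no matched probe, and Ern1 and Ero1b had a probe that did not pass the detection filter. The cells were NR8383, a line of rat alveolar macrophages from lung lavage, kept for 4 h with ZnO at 4 µg/mL (called ZnO 4 below) or at 16 µg/mL (ZnO 16), with 4 arrays per dose that the series describes as biological replicates. The labels give 20 passages for the ZnO 4 cells and 200 for the ZnO 16 cells, and each dose was hybridised on a slide of its own and scanned apart, so dose, passage number, slide and scan cannot be told apart in any difference below. Untreated cells were not analysed here, so the values compare a higher with a lower dose and not exposure with no exposure.

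The ER lumen is crowded with chaperones of the Hsp70 family (Hspa5, also called BiP), the Hsp90 family (Hsp90b1) and the lectin family (Calr and Canx), which hold new secretory proteins until they fold, while protein disulfide isomerases form and rearrange their disulfide bonds. When unfolded proteins accumulate, 3 sensors in the ER membrane respond: IRE1 (gene Ern1) splices the Xbp1 mRNA, ATF6 moves to the Golgi and is cut by the proteases encoded by Mbtps1 and Mbtps2, and PERK (gene Eif2ak3) slows translation and raises Atf4 and its targets. ATF6 and spliced XBP1 bind the ER stress elements in front of chaperone genes, and macrophages, which secrete cytokines and lysosomal enzymes, rely on this system.

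Promoters are shown first, since those elements are what the textbook regulators of the family read. Of the 44 genes, 35 had an entry among the RefSeq promoters of rat assembly GRCr8, and the 250 bases before each annotated start were searched on both strands. The motifs were ERSE (CCAAT, any 9 bases, CCACG), ERSE-II (ATTGG, any base, CCACG), the core of the UPR element (TGACGTG), the amino acid response element of ATF4 (TTGCATCA) and the heat shock element (TTC, any 2 bases, GAA, any 2 bases, TTC). The 5 promoters below were chosen because Hspa5, Calr and Herpud1 hold a match and were called higher at ZnO 16, Hsp90b1 holds a pair of ERSE matches and was not called, and Dnajb9 had the greatest difference of the list and holds none of the searched motifs. Capitals mark the fixed bases of the matches, written 5′ to 3′ on the strand of the gene; on a match to the opposite strand the capitals read CGTGG and ATTGG.
Hspa5 (chr3:38452766-38453015, plus strand): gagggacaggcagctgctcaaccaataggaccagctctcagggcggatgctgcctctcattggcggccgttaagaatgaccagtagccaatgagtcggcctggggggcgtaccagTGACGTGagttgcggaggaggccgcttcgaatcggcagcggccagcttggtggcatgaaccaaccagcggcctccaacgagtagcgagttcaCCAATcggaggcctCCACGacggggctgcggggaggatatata
Calr (chr19:40213117-40213366, plus strand): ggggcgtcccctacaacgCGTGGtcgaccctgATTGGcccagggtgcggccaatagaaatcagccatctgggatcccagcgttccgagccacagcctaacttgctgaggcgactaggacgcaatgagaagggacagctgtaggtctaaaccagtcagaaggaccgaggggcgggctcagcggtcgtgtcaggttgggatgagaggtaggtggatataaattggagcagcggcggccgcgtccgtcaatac
Hsp90b1 (chr7:23012294-23012543, minus strand): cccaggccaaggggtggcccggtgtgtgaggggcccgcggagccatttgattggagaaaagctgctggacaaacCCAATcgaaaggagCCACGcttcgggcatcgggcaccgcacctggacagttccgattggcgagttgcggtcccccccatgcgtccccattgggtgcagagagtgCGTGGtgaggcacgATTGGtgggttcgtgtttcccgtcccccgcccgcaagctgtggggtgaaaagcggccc
Herpud1 (chr19:10614708-10614957, minus strand): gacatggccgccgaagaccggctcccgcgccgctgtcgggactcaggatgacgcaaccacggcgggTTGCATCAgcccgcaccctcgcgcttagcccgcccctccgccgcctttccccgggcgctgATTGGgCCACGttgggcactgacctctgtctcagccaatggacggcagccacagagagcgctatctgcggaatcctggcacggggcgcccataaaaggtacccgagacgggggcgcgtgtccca
Dnajb9 (chr6:67002052-67002301, minus strand): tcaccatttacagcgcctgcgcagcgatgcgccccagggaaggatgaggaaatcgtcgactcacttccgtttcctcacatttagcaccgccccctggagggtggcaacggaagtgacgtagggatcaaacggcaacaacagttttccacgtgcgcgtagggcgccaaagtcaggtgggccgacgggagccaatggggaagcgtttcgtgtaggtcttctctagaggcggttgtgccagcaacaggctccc

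In the Hspa5 promoter the ERSE lay 43 to 25 bases before the start and the UPR element core 135 to 129 bases before it. The Calr match was on the opposite strand, 232 to 214 bases before the start, and Hsp90b1 had 1 ERSE on each strand, at 176 to 158 and at 72 to 54. Herpud1, which carries the ERSE-II form, had it 124 to 114 bases before the start, with the amino acid response element at 184 to 177. The elements were rare elsewhere. ERSE was found in 9 of the 35 member promoters (25.7%), against 21 of 27457 promoters in all (0.0765%), so that 9 of the 21 promoters in the table that hold it belong to listed genes. These are Calr, Canx, Creld2, Derl3, Dnajc3, Ero1b, Hsp90b1, Hspa5 and Xbp1. ERSE-II was found in Herpud1 and Hyou1, against 12 promoters in all (0.0437%), and Hyou1 had 2 copies. The UPR element core was in 5 member promoters (Dnajc10, Erp29, Hspa5, Hyou1 and Vcp) against 437 in all (1.59%), where in Hyou1 it overlaps the farther ERSE-II. The amino acid response element was in Herpud1 alone among the members, against 180 in all (0.656%), and the heat shock element in none, against 164 in all (0.597%). A match is a run of letters, not a measured binding site, and the absence of one says only that these letters are not in this window.

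The deposited values are 1-colour array intensities. All levels below are log2 of the processed signal relative to the 75th percentile of the same array and all differences are ZnO 16 minus ZnO 4 on this log2 scale. Array values are given in the order of replicates 1 to 4. Levels of different genes come from different probes and are not compared. Tests are limma's moderated test over all 13460 genes, two-sided, and a gene is called higher or lower where its p after Benjamini-Hochberg adjustment is under 0.05. Across all genes tested, 19.8% were called higher and 21.9% lower at ZnO 16; among the 7982 with a gene symbol these shares were 23.5% and 16.8%.

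The 75th percentile signal was 313 to 516 on the ZnO 4 arrays and 151 to 381 on the ZnO 16 arrays, and 31.7% to 39.6% of probes were well above background per array. On replicate 4 of ZnO 4 a low area held 5.04% of the spots, with the probes of Ero1a, Hsp90b1, Mbtps1, P4hb, Sec61a1, Syvn1, Xbp1 and the dimmest of Edem1 inside it. The 7 detected spike-in RNAs, which are added to each sample in fixed amounts, differed between the doses by -0.65 to 1.57, and 10 of the 14 called members had a difference inside that range. The 4 outside it were Mbtps1, Dnajb9, Pdia4 and Sec61b, and Mbtps1 comes inside it, at 1.17, with the low area left out. The median over the 7 spike-in RNAs was 1.15, so this range is not centred on 0 and is no measure of noise. Spike-in scaling below uses the mean of their detected spots, although these RNAs did not shift alike. Of 14 macrophage markers 11 were detected on at least 7 of the 8 arrays, while Adgre1 and Marco were detected on none. The summed signal of the list, relative to the 75th percentile on a linear scale, was 509 to 582 at ZnO 4 and 396 to 554 at ZnO 16. Gene by gene, relative to the 75th percentile, 3 of the 11 were called lower at ZnO 16, 1 was called higher and 7 were neither. The differences called were Cd68 at -1.74 (adjusted p = 2.1e-05), Ctsd at -0.80 (adjusted p = 0.00542), Itgam at -0.52 (adjusted p = 0.0142) and Spi1 at 0.81 (adjusted p = 0.00653). Itgam was -0.26 with normexp background correction (adjusted p = 0.139), and its dimmer probe differed by -0.11 (adjusted p = 0.711 over all probes). Lyz2, counted as neither, had dimmer probes at -1.41 (adjusted p = 0.00259 over all probes) and 0.73 (adjusted p = 0.0132 over all probes). Of markers of other cells, 0 of 8 for epithelium, 0 of the 4 measured for neutrophils, 1 of 6 for fibroblasts (Dcn) and 2 of the 4 measured for lymphocytes (Cd3d and Nkg7) were detected, and Cd3d was called lower, at -1.22 (adjusted p = 0.00517). Cd3d was dim, well above background on 3 of 4 arrays at ZnO 16, and differed by 0.028 with normexp (adjusted p = 0.934). Among 4 endothelial markers Pecam1 and Cdh5 were detected, Pecam1 was called lower, at -1.08 (adjusted p = 0.000117), and the summed signal of the list was 1.28 to 1.49 at ZnO 4 and 0.608 to 0.792 at ZnO 16. The part of these differences in the results below was not tested.

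Among the 39 members tested, 11 were called higher at ZnO 16 (28.2%, against 19.8% of all genes and 23.5% of genes with a symbol), 3 were called lower (7.69%, against 21.9% and 16.8%) and 25 were neither. Called higher were Mbtps1 among the sensors, Hspa5, Dnajb9, Calr, P4hb and Erp29 among the chaperones, Herpud1, Syvn1, Edem2 and Vcp in degradation, and Ssr2 at the translocon. Called lower were Pdia4, Edem1 and Sec61b, 1 gene each from the chaperones, degradation and the translocon. The median difference over the members was 0.28, and that over all genes 0.0042. The arrays of the 2 doses did not overlap for 14 members (35.9%, against 39.9% of all genes), 10 of them higher and 4 lower. The share called higher was thus a little above the background and the share called lower below it, while the share without overlap was near it. Called and higher by at least 1 were 3 of the 39 members (Dnajb9, Mbtps1 and Herpud1), against 6.84% of all genes, and called and lower by as much was 1 (Sec61b), against 11.8% of all genes. The count of such higher members is near the background.

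**Figure D1:**
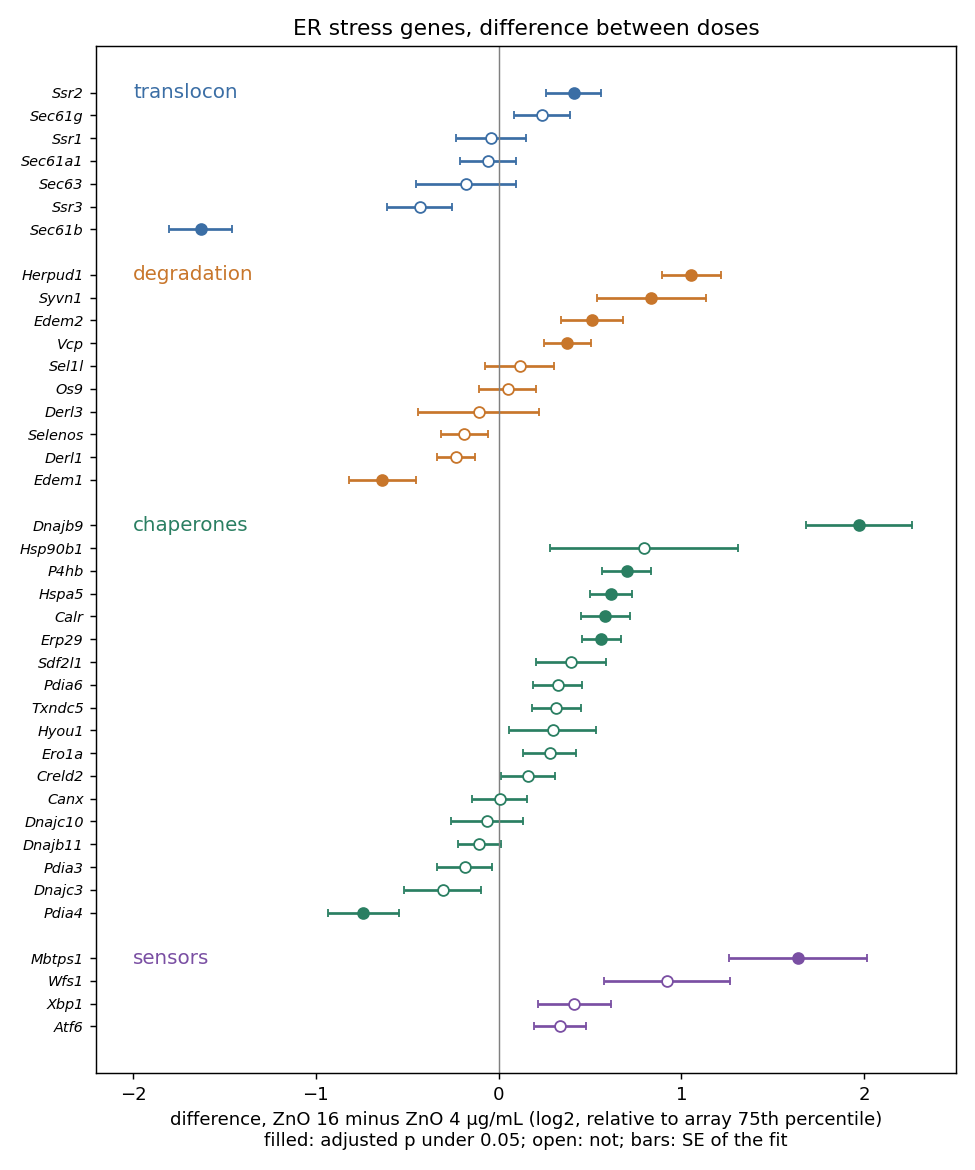
Difference ZnO 16 minus ZnO 4 (log2, relative to the 75th percentile of each array) for the 39 tested members, grouped by role, with the standard error of the fit; filled points have an adjusted p under 0.05. Dnajb9 at 1.97 and Sec61b at -1.63 are the ends of the range, and 7 of the filled points right of 0 (Hspa5, Calr, P4hb, Erp29, Edem2, Vcp and Ssr2) turn negative without scaling or with spike-in scaling.

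The direction of the smaller differences depended on the scale. Without any scaling between arrays the median of all genes moved to -0.75, and with the spike-in RNAs as the scale to -0.80. Hspa5, Calr, P4hb, Erp29, Edem2, Vcp and Ssr2 then had a negative difference, although each stayed above the median of all genes. Under those settings 0 members were called higher and 4 lower (no scaling, 229 and 4417 of all genes), and 1 higher and 7 lower (spike-in scaling, 224 and 5084 of all genes). The split was 16 to 1 with the median as the scale (3405 higher and 1980 lower of all genes, whose median then was 0.17) and 16 to 2 with the 75th percentile over detected probes. With normexp background correction it was 10 to 3 (2776 and 1996 of all genes, with a median of 0.15), against 11 to 3 in the fit reported (2669 and 2943). Directions below are therefore relative to each array's 75th percentile.

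The sensor branch was read by 4 tested genes, of which Mbtps1 was called higher and none lower. That is 25% called higher, near the 19.8% of all genes and the 23.5% of genes with a symbol. Mbtps1 encodes the Golgi site-1 protease that makes the first cut in ATF6. Its level was 0.39, -0.019, 0.15 and -1.70 on the ZnO 4 arrays and 1.45, 1.26, 1.29 and 1.37 on the ZnO 16 arrays. All 4 arrays at ZnO 16 were above all 4 at ZnO 4, and the low array at ZnO 4 was replicate 4, whose spot lay in the low area. The difference was 1.64 ± 0.38 (SE of the fit, adjusted p = 0.00642), and 1.17 with that area left out (adjusted p = 0.000132). A second, dimmer Mbtps1 probe outside the low area read -4.00, -3.76, -3.50 and -2.94 at ZnO 4 and -2.49, -2.66, -2.51 and -2.46 at ZnO 16, a difference of 1.02 (adjusted p = 0.0081 over all probes). Both probes thus stood higher at ZnO 16 on every array, although the call of the brighter one was lost without scaling (0.88) and with spike-in scaling (0.83).

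Xbp1 encodes the factor whose mRNA IRE1 splices. It read 1.32, 1.61, 1.46 and 1.11 at ZnO 4 and 1.84, 2.04, 2.08 and 1.20 at ZnO 16. The first 3 arrays at ZnO 16 were above every ZnO 4 array and replicate 4 was not, and the difference of 0.41 ± 0.20 (SE of the fit, adjusted p = 0.117) did not pass. It passed in 5 of 21 alternative settings: with normexp background correction (0.66, adjusted p = 0.0209), with the median as the scale (0.58), with the percentile over detected probes (0.50), without ZnO 16 replicate 4 (0.61) and with the replicate number as a block (adjusted p = 0.0386). It was negative without scaling (-0.34) and with spike-in scaling (-0.39). With the low area left out it was 0.33 (adjusted p = 0.23). The array measures total Xbp1 mRNA, and its spliced form was not read apart.

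Atf6, the sensor that becomes a transcription factor after it is cut, had 2 probes whose differences were of opposite sign. The brighter probe read 0.36, 0.20, 0.49 and 0.17 at ZnO 4 and 0.83, 0.47, 0.44 and 0.82 at ZnO 16, a difference of 0.33 ± 0.14 (SE of the fit, adjusted p = 0.0838). The dimmer probe, on a predicted transcript, read 0.048, -0.45, 0.14 and 0.034 at ZnO 4 and -0.38, -1.22, -1.17 and -0.46 at ZnO 16, a difference of -0.75 (adjusted p = 0.0225 over all probes). The doses overlapped in both probes, so Atf6 has no single direction here. Wfs1, the wolframin protein of the ER membrane that restrains ATF6, ranged from -2.59 to -1.45 at ZnO 4 and from -1.76 to -0.32 at ZnO 16. Its difference of 0.92 (adjusted p = 0.0536) missed the threshold and passed in 7 of 21 alternative settings. Ern1 was well above background on 0 of 4 arrays at ZnO 4 (-4.47, -4.88, -4.32 and -3.63) and on 2 of 4 at ZnO 16 (-4.48, -3.07, -3.65 and -4.71), so its level was not measured well enough for a test.

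**Figure D2:**
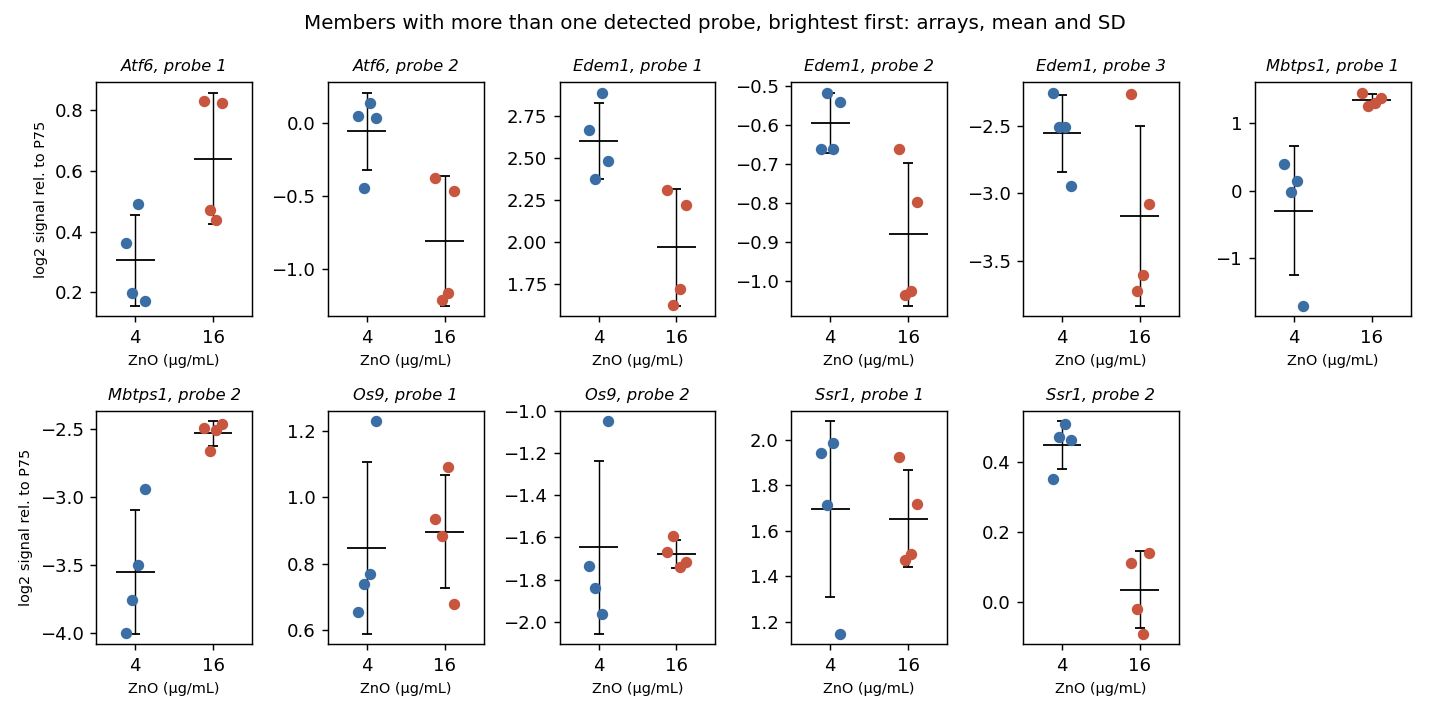
Level (log2 signal over that array's 75th percentile) on each array at ZnO 4 and ZnO 16 µg/mL for the 5 members with more than one detected probe, with the mean (line) and SD (bar, n = 4). The Atf6 probes have differences of opposite sign, both Mbtps1 probes are higher at ZnO 16, and the 3 Edem1 probes are all lower on average at ZnO 16.

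Among the Hsp70 system, 8 of its 9 listed genes were tested, 2 were called higher and none lower. That is 25% called higher, near the 19.8% of all genes and the 23.5% of genes with a symbol. Hspa5 is the main Hsp70 of the ER and also holds the sensors inactive. It read 2.84, 3.04, 3.23 and 2.97 at ZnO 4 and 3.62, 3.70, 3.69 and 3.53 at ZnO 16. Every ZnO 16 array was above every ZnO 4 array, within a narrow range at each dose. The difference was 0.61 ± 0.12 (SE of the fit, adjusted p = 0.00228), or 1.53-fold, and it was called in each of the 8 fits that left out 1 array, but it was -0.14 without scaling and -0.19 with spike-in scaling.

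Dnajb9 (ERdj4) is the co-chaperone that brings Hspa5 to IRE1 and to proteins bound for degradation. It read -3.73, -4.88, -3.88 and -3.73 at ZnO 4, where 3 of 4 arrays were well above background, and -2.15, -2.34, -1.75 and -2.10 at ZnO 16, where all 4 were. The doses lay far apart, with replicate 2 the lowest at ZnO 4. The difference of 1.97 ± 0.29 (SE of the fit, adjusted p = 0.000509) was the largest of the list. It was 1.04 with normexp (adjusted p = 0.000359), 1.22 without scaling (adjusted p = 0.058) and 1.17 with spike-in scaling (adjusted p = 0.0477).

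The other co-chaperones of Hspa5 were not called. Dnajb11 (ERdj3), which hands unfolded proteins to Hspa5, differed by -0.10 (adjusted p = 0.497), Dnajc3 (p58IPK), an inhibitor of PERK that also binds Hspa5, by -0.31 (adjusted p = 0.262), and Dnajc10 (ERdj5), a disulfide reductase that prepares proteins for export from the ER, by -0.063 (adjusted p = 0.819). All 3 differences were negative and none passed. Hyou1, the ER member of the Hsp110 family that exchanges nucleotide on Hspa5, differed by 0.30 (adjusted p = 0.343). Its ZnO 4 arrays ranged from 0.79 to 1.95, with replicate 4 the lowest, and its ZnO 16 arrays from 1.63 to 2.06. Sdf2l1, which works with Dnajb11, differed by 0.40 (adjusted p = 0.118), and Creld2, an ER stress gene, by 0.16 (adjusted p = 0.41). Both Hyou1 and Creld2 hold an ER stress element and had overlapping doses.

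Of the 3 Hsp90 and lectin genes, Calr was called higher (33.3%, against 19.8% of all genes and 23.5% of genes with a symbol). Calr, the calcium-binding lectin of the ER lumen, ranged from 2.91 to 3.40 at ZnO 4 and from 3.69 to 3.90 at ZnO 16 with no overlap. Its difference was 0.58 ± 0.13 (SE of the fit, adjusted p = 0.00615), which did not pass with normexp (0.11, adjusted p = 0.606) and was -0.17 without scaling and -0.22 with spike-in scaling. Canx, the membrane-bound lectin of the same cycle, differed by 0.0051 (adjusted p = 0.981) with doses that overlapped throughout. Hsp90b1 (GRP94), the ER Hsp90 that folds integrins and Toll-like receptors, read 0.21, -0.042, 0.38 and -2.40 at ZnO 4 and 0.57, 0.019, 0.42 and 0.34 at ZnO 16. One array set the difference: replicate 4 of ZnO 4, whose spot lay in the low area, was at -2.40, while the other 7 arrays overlapped. The difference was 0.80 ± 0.51 (SE of the fit, adjusted p = 0.236), and -0.019 with the low area left out (adjusted p = 0.945).

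Of the thiol enzymes, 7 of 8 were tested, and 2 were called higher and 1 lower. These are 28.6% and 14.3%, against 19.8% and 21.9% of all genes, and 23.5% and 16.8% of genes with a symbol. P4hb (PDI), the best known disulfide isomerase, ranged from 2.63 to 2.99 at ZnO 4 and from 3.23 to 3.74 at ZnO 16, a difference of 0.70 ± 0.14 (SE of the fit, adjusted p = 0.00262). Erp29, a thioredoxin-fold chaperone that lacks the active cysteine pair, ranged from 2.75 to 2.98 and from 3.35 to 3.59, a difference of 0.56 ± 0.11 (SE of the fit, adjusted p = 0.00254). Both had doses that did not overlap, yet both turned negative in 2 settings: P4hb was -0.054 without scaling and -0.11 with spike-in scaling, and Erp29 was -0.19 without scaling and -0.24 with spike-in scaling. Erp29 also missed the threshold with normexp (0.026, adjusted p = 0.893). Pdia4 (ERp72), a disulfide isomerase found with Hspa5, went the other way: it ranged from -0.35 to -0.095 at ZnO 4 and from -1.39 to -0.41 at ZnO 16, a difference of -0.74 ± 0.20 (SE of the fit, adjusted p = 0.0125). Its direction held in all 21 alternative settings and its call in 20, the exception being the median as the scale (-0.57, adjusted p = 0.108). Pdia6, which attenuates IRE1, differed by 0.32 (adjusted p = 0.0795) with doses that did not overlap. Txndc5 (ERp46) differed by 0.32 (adjusted p = 0.0825), Pdia3 (ERp57), the isomerase that partners the lectins, by -0.19 (adjusted p = 0.342), and Ero1a, the oxidase that recharges P4hb, by 0.28 (adjusted p = 0.151). Ero1b, the other oxidase, was well above background on 0 of the 8 arrays. P4hb and Pdia4 thus were both called, in opposite directions relative to the 75th percentile.

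**Figure D3:**
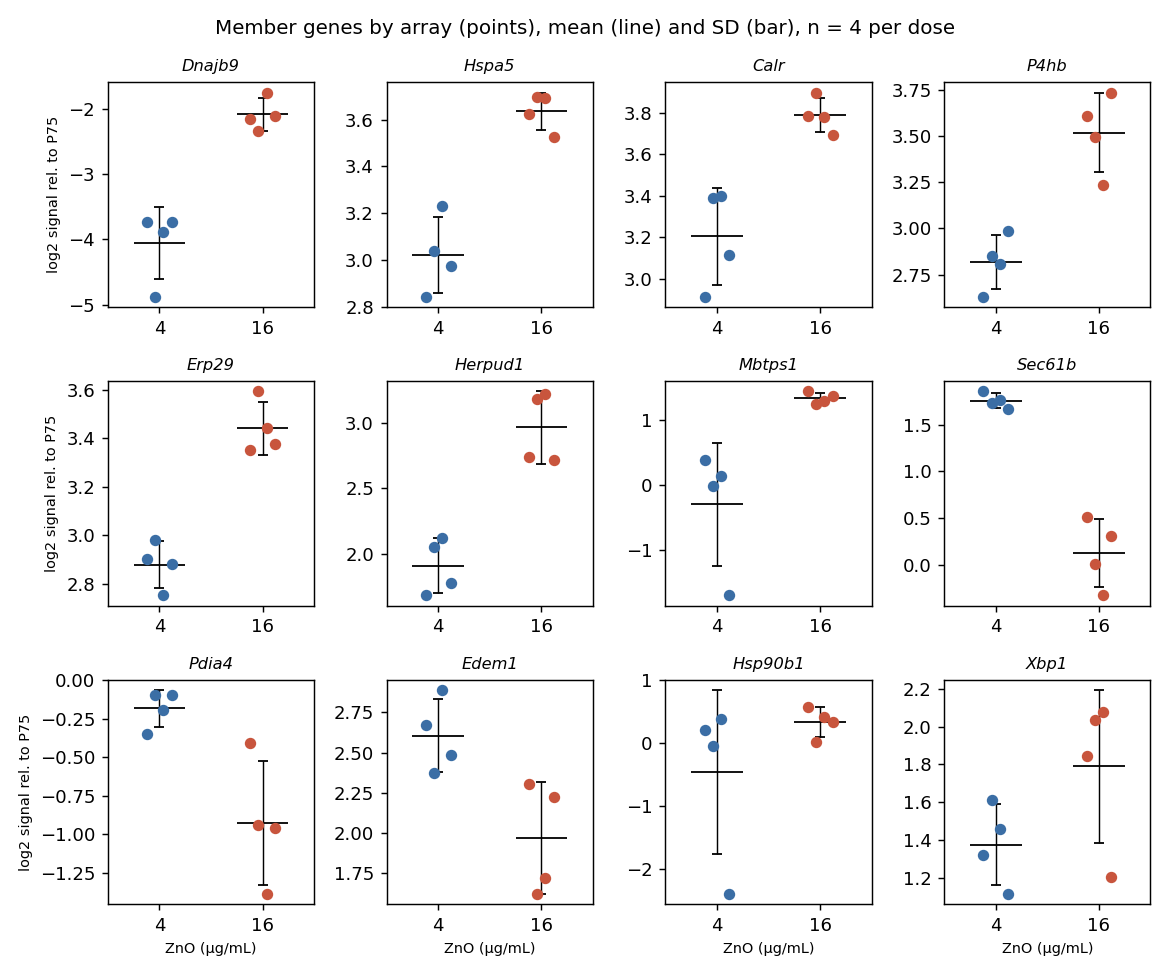
Level (log2 signal over that array's 75th percentile) on each array at ZnO 4 and ZnO 16 µg/mL for 12 members, with the mean (line) and SD (bar, n = 4). The doses are apart for the first 10 panels, while Hsp90b1 rests on 1 low array at ZnO 4 and Xbp1 overlaps; the higher direction of Hspa5, Calr, P4hb and Erp29 flips without scaling and with spike-in scaling.

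The degradation genes had 4 calls higher and 1 lower among 10 tested, or 40% and 10%. The shares were 19.8% and 21.9% of all genes, and 23.5% and 16.8% of genes with a symbol. Herpud1 is the membrane protein that organises the ubiquitin ligase complex and is among the strongest targets of the unfolded protein response. It read 1.69, 2.05, 2.12 and 1.78 at ZnO 4 and 2.74, 3.18, 3.22 and 2.72 at ZnO 16. Every ZnO 16 array was above every ZnO 4 array, and the difference was 1.05 ± 0.16 (SE of the fit, adjusted p = 0.000649), or 2.08-fold. It stayed positive in all 21 alternative settings, with the call lost without scaling (0.30) and with spike-in scaling (0.25).

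Syvn1 (HRD1) is the ubiquitin ligase that Herpud1 serves. Its ZnO 4 arrays ranged from -0.99 to 0.17 and its ZnO 16 arrays from -0.0023 to 1.03, so the doses overlapped. The difference of 0.84 ± 0.30 (SE of the fit, adjusted p = 0.0436) became 0.58 with the low area left out (adjusted p = 0.0839), and it did not pass in 6 of the 8 fits that left out 1 array. Sel1l, the partner that links Syvn1 to its substrates, differed by 0.12 (adjusted p = 0.649). Vcp (p97), the ATPase that pulls ubiquitinated proteins out of the membrane, ranged from 3.04 to 3.46 at ZnO 4 and from 3.47 to 3.82 at ZnO 16. Its difference was 0.38 ± 0.13 (SE of the fit, adjusted p = 0.0371), it did not pass in 6 of the 8 fits that left out 1 array or with normexp, and it was -0.38 without scaling and -0.43 with spike-in scaling.

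The mannosidase-like proteins Edem1 and Edem2, which mark glycoproteins for disposal, went opposite ways. Edem2 ranged from -1.15 to -0.71 at ZnO 4 and from -0.67 to -0.15 at ZnO 16, a difference of 0.51 ± 0.17 (SE of the fit, adjusted p = 0.0343) that did not pass in 5 of the 8 fits that left out 1 array and was -0.24 without scaling and -0.29 with spike-in scaling. Edem1 was measured by 3 probes. The brightest read 2.67, 2.37, 2.89 and 2.48 at ZnO 4 and 2.31, 1.62, 1.72 and 2.22 at ZnO 16, a difference of -0.64 ± 0.18 (SE of the fit, adjusted p = 0.0187). The doses did not overlap, but replicates 1 and 4 of ZnO 16 came close to the lower ZnO 4 arrays. The other probes differed by -0.28 (adjusted p = 0.121) and -0.62 (adjusted p = 0.146 over all probes), the same direction with no call. The call of the brightest probe was lost without ZnO 4 replicate 3, without ZnO 16 replicate 3, with the mean of the probes, with the median as the scale (-0.47) and with the percentile over detected probes (-0.55).

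The channel and lectin proteins of degradation were not called. Derl1, a part of the retrotranslocation channel, ranged from 1.88 to 1.99 at ZnO 4 and from 1.61 to 1.77 at ZnO 16 with no overlap, a difference of -0.23 (adjusted p = 0.0914). Derl3 differed by -0.11 (adjusted p = 0.812) and was well above background on 3 of 4 arrays at ZnO 16. Os9, a lectin that reads trimmed glycans, differed by 0.049 (adjusted p = 0.82), with a second probe at -0.032, and Selenos, which recruits Vcp to the membrane, by -0.19 (adjusted p = 0.265).

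At the translocon, 7 of 8 genes were tested, 1 was called higher and 1 lower. Each is 14.3%, against 19.8% and 21.9% of all genes, and 23.5% and 16.8% of genes with a symbol. Sec61b, the small beta subunit of the Sec61 channel, was read by 1 probe, so no second probe checks its values. Its level was 1.86, 1.73, 1.77 and 1.67 on the ZnO 4 arrays and 0.52, 0.0069, -0.33 and 0.31 on the ZnO 16 arrays. All 4 ZnO 16 arrays lay below the lowest ZnO 4 array by more than 1. The difference was -1.63 ± 0.17 (SE of the fit, adjusted p = 5.9e-05), or 3.10-fold lower, the largest fall of the list, and it was called in all 21 alternative settings. The other channel subunits did not follow it: Sec61a1, the pore, differed by -0.058 (adjusted p = 0.784), and Sec61g by 0.24 (adjusted p = 0.235). Sec63, which brings Hspa5 to the channel, differed by -0.18 (adjusted p = 0.631) and was well above background on 3 of 4 arrays at ZnO 16.

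Of the translocon-associated protein complex, which helps some signal sequences enter the channel, Ssr2 ranged from 2.58 to 2.86 at ZnO 4 and from 2.78 to 3.44 at ZnO 16, so the doses overlapped. Its difference of 0.41 ± 0.15 (SE of the fit, adjusted p = 0.0485) did not pass in 7 of the 8 fits that left out 1 array and was -0.34 without scaling and -0.39 with spike-in scaling. Ssr3 differed by -0.43 (adjusted p = 0.0757). Ssr1 differed by -0.043 (adjusted p = 0.875) on its brighter probe, and its dimmer probe read 0.35, 0.47, 0.51 and 0.46 at ZnO 4 and 0.11, -0.021, -0.091 and 0.14 at ZnO 16, a difference of -0.41 (adjusted p = 0.0164 over all probes). Ssr4, which is among the further ER genes below, differed by 0.19 (adjusted p = 0.246). The subunits of the complex therefore had differences of both signs, most of them not called, and the call of Ssr2 was not stable.

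Within ZnO 16 the arrays split. Replicates 2 and 3, which had the lowest 75th percentile signals (151 and 190, against 374 and 381 for replicates 1 and 4), lay together above or together below replicates 1 and 4 for 30 of the 39 members (76.9%), 14 above and 16 below. For all genes with 4 values this share was 61.5%. Herpud1, Syvn1, Sdf2l1 and Xbp1 were among those above and Edem1, Sec61b, Canx and Pdia3 among those below. Leaving out ZnO 16 replicate 2 gave 7 members called higher, as did leaving out ZnO 4 replicate 1 or 3, against 11 with all arrays. In these fits the genes called higher over all also fell, to 2187, 2022 and 1941, against 2669. The members called in each of the 8 fits that left out 1 array were 9 of the 14: Hspa5, Calr, P4hb, Erp29, Dnajb9, Herpud1 and Mbtps1 higher and Pdia4 and Sec61b lower. Of these, Hspa5, Calr, P4hb and Erp29 flip direction without scaling and with spike-in scaling.

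Set against the promoter letters, 10 genes with an ERSE or ERSE-II match were tested: 3 were called higher (Hspa5, Calr and Herpud1), none lower and 7 were neither. Of the 22 tested members whose promoter held neither, 8 were called higher, 3 lower and 11 neither. Of the 5 with a UPR element core, 3 were called higher (Hspa5, Erp29 and Vcp) and none lower. Of all genes 19.8% were called higher and 21.9% lower, and of genes with a symbol 23.5% and 16.8%. Tested members without a promoter entry are in none of these counts. The counts are small and no test compared them. Hsp90b1 with 2 ERSE matches and Hyou1 with 2 ERSE-II matches were not called, while Dnajb9, with none, had the largest difference. The higher calls of Hspa5, Calr, Erp29 and Vcp flip direction without scaling and with spike-in scaling.

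**Figure D4:**
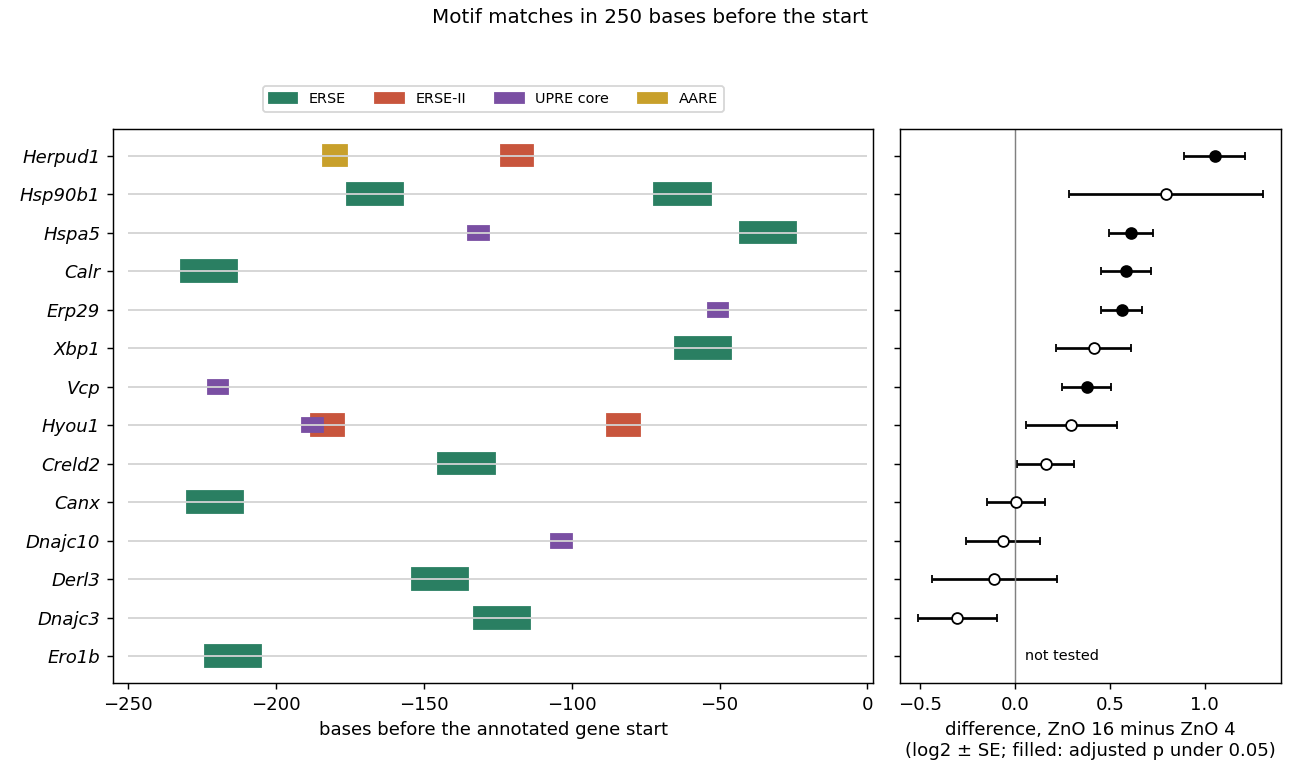
Left, positions of the motif matches in the 250 bases before the annotated start for the 14 members that hold one. Right, the difference ZnO 16 minus ZnO 4 (log2 ± SE of the fit) of the same genes, filled where the adjusted p was under 0.05; Herpud1, Hspa5, Calr, Erp29 and Vcp are filled, the last 4 turn negative without scaling or with spike-in scaling, and the genes with ERSE or ERSE-II run from Herpud1 at 1.05 down to Dnajc3 at -0.31.

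The PERK arm was listed apart. Eif2ak3 itself differed by -0.0048 (adjusted p = 0.988) and Atf4, whose protein rises mainly through translation, by 0.20 (adjusted p = 0.392). Genes known as targets of Atf4 stood far higher: Atf3 by 4.79 (adjusted p = 3.18e-08), Ppp1r15a (GADD34), which restores translation, by 3.16 (adjusted p = 2.93e-07), and Trib3 by 2.94 (adjusted p = 2.01e-06). Ddit3 (CHOP) differed by 4.82 (adjusted p = 0.00124), and by 3.78 with the low area, which held its probe, left out; it was well above background on 3 of 4 arrays at ZnO 4. So 4 of the 6 PERK arm genes were called higher, each by at least 2.94. Among all genes 19.8% were called higher, and 6.84% were called higher by at least 1. The 6 genes were chosen with earlier results of these data known. The route to these differences was not tested.

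Of 78 further ER genes, 67 were tested and 18 were called higher (26.9%, against 19.8% of all genes and 23.5% of genes with a symbol). Called lower were 7 (10.4%, against 21.9% and 16.8%). The share called higher is near that of genes with a symbol. Further degradation genes were called higher in 8 of 18 (44.4%) and lower in 2 (11.1%). Further folding genes were called higher in 2 of 13 (15.4%) and lower in 1 (7.69%), as were signal peptidase and translocon genes. Oligosaccharyltransferase and glucosidase genes were called higher in 2 of 9 (22.2%) and lower in 0. Signal recognition particle genes were called higher in 1 of 8 (12.5%) and lower in 2 (25%), and further regulators higher in 3 of 6 (50%) and lower in 1 (16.7%). The largest called differences upward were Erlec1, a lectin of the degradation path, at 2.41, and Srpra, the receptor of the signal recognition particle, at 2.09 (adjusted p = 0.015). Next was Traf2, which binds active IRE1, at 1.62 (adjusted p = 2.63e-05). Erlec1 was well above background on 0 arrays at ZnO 4 and on 3 at ZnO 16, where 3 values entered the fit. It passed the filter only through ZnO 16, so its call is not read as support and no p is printed. On the processed signal it is given as at least 3.95-fold higher. Its log2 difference was 1.11 with normexp, which is less than that bound, so the bound holds for the processed signal only. That bound sets the ZnO 16 mean against a ZnO 4 mean in which each array gives its lowest detected signal, or the probe's own value where that is higher. Srpra was 1.37 with the low area, which held its probe, left out. The largest downward were Srp68 at -0.83 (adjusted p = 0.000239), Tram1, a membrane protein beside the channel, at -0.71 (adjusted p = 0.00504), and Erp44, which returns folding enzymes to the ER, at -0.53 (adjusted p = 0.0116). A dimmer Srp68 probe went the other way, at 1.35 (adjusted p = 0.000264 over all probes), so Srp68 has no single direction here.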

How the data were processed

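The deposited files are scanner output of Agilent 1-colour arrays quantified, per the submitters' processing notes, in Agilent Feature Extraction 11.0.1.1. The processed signal in them is a linear intensity from which, per the file headers, background and a spatial trend had been removed in each array; it had not been normalized between arrays. Raw median intensities (used for normexp) and 0 or 1 flags for outlying spots and for spots well above background were also taken from the deposited files.

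Flagged outlier spots were left out, spots of a probe averaged, and log2 intensity minus each array's 75th percentile taken. A gene needed to be well above background on at least 3 of 4 arrays of a dose, and its brightest probe stood for it. Accessions were named without versions through RefSeq genes of GRCr8 (21109 of 45598 probes); the file headers name another build, so only names were used. limma 3.58.1 in R 4.3.3 (lmFit, eBayes with an intensity trend) tested all 13460 genes, and was checked on simulated data. Its p-values measure the spread between these arrays, whose number limits the precision.

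The members and gene lists were chosen with earlier results of these data known. Array values are printed for called members that differ by at least 1 without overlap, for Hspa5, Hsp90b1, Ern1, Atf6 and Xbp1, and where probes disagree. The dimmer Mbtps1 and Ssr1 probes were added to that after their values were seen. Of the further ER genes at most 3 called genes in each direction are named. Alternatives were other background correction, scaling, filters, probe choice, variance model, a replicate block, low areas masked and each array left out.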

Additional observations from a re-analysis of the deposited data

Results flagged for a closer look

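Among 78 groups of 4 arrays (39 members at 2 doses), 3 had a lowest or highest array beyond Dixon's 95% critical value, where chance alone marks about 1 group in 20. The gap to the nearest array was taken as a share of the group's range. For Dnajb9, replicate 2 was the lowest at ZnO 4, at -4.88 against -3.88 to -3.73 for the other arrays (share 0.864). For Sdf2l1, replicate 2 was the highest at ZnO 4, at 5.30 against 4.92 to 4.98 (share 0.847). For Hsp90b1, replicate 4 was the lowest at ZnO 4, at -2.40 against -0.042 to 0.38 (share 0.847), and its spot lay in the low area of that array.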

How the results depend on the processing

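Of the 14 called members, 7 changed sign, each without scaling and with spike-in scaling. Without scaling the differences were Hspa5 -0.14, Calr -0.17, P4hb -0.054, Edem2 -0.24, Vcp -0.38, Erp29 -0.19 and Ssr2 -0.34. With spike-in scaling they were Hspa5 -0.19, Calr -0.22, P4hb -0.11, Edem2 -0.29, Vcp -0.43, Erp29 -0.24 and Ssr2 -0.39. Members called higher then numbered 0 and 1, against 11. Members called lower numbered 7 with spike-in scaling and 1 with the median as the scale, against 3. When each array was left out in turn, members called higher ranged from 7 to 12, with 7 without ZnO 4 replicate 1, ZnO 4 replicate 3 or ZnO 16 replicate 2, members called lower from 2 to 4, and genes called from 4423 to 5576, against 5612. The count of genes called stayed within 1.5 times of 5612 in all 21 settings. The labels do not say whether replicate numbers pair the samples. Replicates with the same number did not all deviate together (correlations 0.25, 0.40, -0.22 and -0.029), though 0.40 and 0.25 were the highest across the doses. These values cannot decide on pairing, since the ZnO 16 arrays also split among themselves. With the replicate number as a block, 5472 genes were called. Then 12 members were higher, Xbp1 being the one added (adjusted p = 0.0386), and 3 lower. Signal over background limits dim genes: 184 genes were well above background on 0 arrays at ZnO 4 and 500 on 0 at ZnO 16. Dose, passage, slide and scan cannot be told apart in any setting.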
